A study of Mus musculus with 10 samples.

Results

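The genes described here encode the cytosolic DNA sensing route of cGAS and STING together with proteins that clear or shield DNA or remove the second messenger of that route. There were 9 of them (Cgas, Sting1, Tbk1, Ikbke, Irf3, Trex1, Samhd1, Banf1 and Enpp1), taken by symbol from a table of 57010 mouse gene identifiers. The rule used no measured value, but the set was chosen with earlier results of these data known. All 9 were in the table, and 8 reached the mean of 10 normalized reads required for testing, among 12455 genes in all. RNA was sequenced from mouse bone marrow-derived macrophages (BMDM), which are macrophages grown from marrow in culture, here for 7 days with 20 ng/mL M-CSF. The femurs that gave the marrow were from wild-type (WT) animals or from WASp knockouts (WKO); WASp is the activator of branched actin assembly encoded by Was. Cells were unconfined or were held for 1 h at a height of 3 µm under PDMS micropillars. The groups were WT unconfined (2 libraries, replicates 1 and 3), WKO unconfined (2, replicates 1 and 3), WT confined (3, replicates 2, 3 and 6) and WKO confined (3, replicates 1, 2 and 5). The labels give neither the age of the mice nor how Was was disrupted, and they do not say whether unconfined cells were placed in the same device. They also do not say whether replicate libraries came from separate mice or cultures, so the p-values measure only the spread between these libraries, which may be technical.

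Cyclic GMP-AMP synthase (cGAS, gene Cgas) binds double-stranded DNA and makes the cyclic dinucleotide cGAMP, which binds STING on the endoplasmic reticulum. STING then moves to the Golgi, where the kinase TBK1, with its relative IKK-epsilon (Ikbke), phosphorylates the transcription factor IRF3, and type I interferon and inflammatory genes are transcribed. The exonuclease TREX1 degrades cytosolic DNA, SAMHD1 degrades deoxynucleotide triphosphates, BAF (Banf1) coats chromatin and competes with cGAS for it, and the ectoenzyme ENPP1 hydrolyses cGAMP outside the cell. The title of the series names nuclear envelope rupture, an event that can expose nuclear DNA to the cytosol, which is the reason to look at transcripts of this pathway.

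Of the 8 tested members, 1 passed the test in any comparison. Enpp1 was 1.33-fold higher in WKO than in WT macrophages when the conditions were averaged (95% interval 1.13 to 1.58), where 5.57% of all tested genes passed. That call was close to the threshold and was lost under most alternatives, as given below. Transcripts of the sensor, the adaptor, both kinases, IRF3, Samhd1 and Banf1 passed in 0 comparisons. In the averaged confinement comparison 16 of 128 tested genes from wider lists around the pathway passed (5 to 25 when 1 library was left out, and 6.21% of all tested genes passed there), among them Tnfaip3, Cxcl10, Insig1, Sqstm1 and Lmna. Trex1 was listed at 0 in all 10 libraries, which in this table is shared by every protein-coding gene whose exons lie wholly inside exons of other genes on the same strand.

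Depth was similar in all libraries, between 13295701 and 19329908 reads, so that 3 reads, taken as the detection floor, corresponded to 2.35 to 3.59 normalized reads. A normalized read count is the number of reads of a gene divided by 1 factor per library. Was had 1308 to 1649 normalized reads in the WT and 96.9 to 154 in the WKO libraries. All 10 macrophage markers were detected in every group, and their sums were also higher in WKO libraries, at 249304 to 257955 against 215666 to 215808 normalized reads unconfined and 259945 to 322039 against 187068 to 214946 confined. Averaged over conditions, 3 of the 10 were called higher and the median log2 difference was 0.15. Markers of other cells were also present, and their sums are given beside the results they touch. Those of T and NK cells were 0 to 18 normalized reads. The WKO confined libraries were the most dispersed, with a median absolute deviation of a gene from its group mean of 0.133 to 0.209 (log2) against 0.087 to 0.113 in the other libraries.

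Promoter sequences are shown for the 2 members that hold an NF-kB-like motif before the start of transcription, and for 2 genes of the pathway's readout and control, Cxcl10 and Tnfaip3, whose transcripts rose after confinement. Sequences are from RefSeq (GRCm38.p6), 5′ to 3′ in the direction of the gene, and end at the base before the start. None of the bases shown lies in an annotated exon, for which the sequence of Tnfaip3 is the shorter one. Capitals mark matches on either strand to GGGNNNTTCC (kB), GAAANNGAAA (ISRE, the interferon-stimulated response element) or TGANTCA (AP-1).
Cgas, chr9:78443238-78443487, minus strand: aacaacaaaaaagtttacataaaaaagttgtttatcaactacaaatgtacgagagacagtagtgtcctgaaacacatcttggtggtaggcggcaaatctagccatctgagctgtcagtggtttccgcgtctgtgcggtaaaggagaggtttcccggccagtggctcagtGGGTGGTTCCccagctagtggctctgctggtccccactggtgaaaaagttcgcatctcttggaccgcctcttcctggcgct
Enpp1, chr10:24712160-24712409, minus strand: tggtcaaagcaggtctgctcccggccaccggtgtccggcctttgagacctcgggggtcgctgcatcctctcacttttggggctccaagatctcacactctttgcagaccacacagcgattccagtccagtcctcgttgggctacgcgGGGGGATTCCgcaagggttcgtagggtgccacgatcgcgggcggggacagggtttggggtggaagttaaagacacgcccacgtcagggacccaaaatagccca
Cxcl10, chr5:92348890-92349139, minus strand: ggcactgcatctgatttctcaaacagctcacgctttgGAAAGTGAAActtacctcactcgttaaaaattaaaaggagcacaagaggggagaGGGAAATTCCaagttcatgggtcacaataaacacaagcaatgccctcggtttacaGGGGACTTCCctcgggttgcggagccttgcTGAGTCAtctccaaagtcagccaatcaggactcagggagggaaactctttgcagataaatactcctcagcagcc
Tnfaip3, chr10:19015411-19015547, minus strand: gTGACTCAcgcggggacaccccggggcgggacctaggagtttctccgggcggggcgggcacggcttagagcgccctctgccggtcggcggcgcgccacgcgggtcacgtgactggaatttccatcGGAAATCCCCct
Windows from 250 bases before to 50 bases after the start were found for 8 of the 9 members, all but Sting1. The kB letters occurred in Cgas at position -81 and in Enpp1 at position -103, counted from the start, and the AP-1 letters in Ikbke at position -6, inside an annotated exon. The ISRE letters were in 0 of the 8 members with a window. Cxcl10 had an ISRE match at -213, kB matches at -159 and -104 and an AP-1 match at -74, while Tnfaip3 had kB matches at -12 and, in an exon, at 33, and an AP-1 match at -136. A second start of Tnfaip3, not shown, had a kB match at -90. Among 32851 promoter windows of this length, 5.56% held the kB letters, 3.44% the ISRE letters and 7.81% the AP-1 letters. A match describes letters and is neither a binding site nor a cause.

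The DNA sensor and its adaptor come first in the pathway. Cgas (ENSMUSG00000032344, chr9:78430526-78443237, minus strand) had 288 and 216 normalized reads in the WT unconfined libraries and 267 and 183 in the WKO unconfined ones. After confinement it had 268, 195 and 336 in WT and 208, 288 and 288 in WKO. The ranges of all 4 groups overlapped, and the spread within a group was up to 26.6% of its mean. Averaged over genotypes, Cgas was 0.14 higher on the log2 scale after confinement (SE 0.187, 95% interval -0.27 to 0.55, limma adjusted p 0.712), and averaged over conditions it was -0.09 in WKO against WT (interval -0.50 to 0.32, limma adjusted p 0.846). A change in Cgas of up to 1.46-fold in the first comparison thus lay inside the interval.

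Sting1 (ENSMUSG00000024349), the receptor of cGAMP, had 559.5 and 459 normalized reads in WT and 487 and 595 in WKO unconfined libraries. Confined cells gave 477, 438 and 470.0 in WT and 549, 397 and 564 in WKO. The 3 WT confined values lay close together, and WKO confined replicate 2 was the lowest of all 10. Its averaged difference was -0.12 by confinement (log2, interval -0.40 to 0.15, limma adjusted p 0.613) and 0.10 by genotype (interval -0.18 to 0.37, limma adjusted p 0.730). Within a library, Sting1 exceeded Cgas per kb of exon by 2.07 to 4.90 times.

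The kinases that act downstream of STING differed in how steady they were. Tbk1 (ENSMUSG00000020115, chr10:121546455-121586787, minus strand), the main kinase of IRF3, had 1128 and 1252 normalized reads in WT and 1155 and 1347 in WKO unconfined libraries. It had 1297, 1346 and 1287 in WT confined and 1155, 1322 and 1518 in WKO confined libraries. Its highest library exceeded its lowest by 1.35 times, and its SD over the 10 libraries (0.130, log2) was below that of all but 9.52% of the tested genes. All WT confined values lay above both WT unconfined ones, by 0.14 on the log2 scale (SE 0.134, interval -0.15 to 0.43, limma adjusted p 0.735). Groups without overlap are common in a comparison of this size: 35.9% of all tested genes were separated in the same way between confined and unconfined WT libraries.

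Ikbke (ENSMUSG00000042349, chr1:131254343-131279606, minus strand) encodes IKK-epsilon, which shares substrates with TBK1. It had 2197 and 1776 normalized reads in WT unconfined and 1822 and 2177 in WKO unconfined libraries, against 1564, 1559 and 1304 in WT confined and 1836, 1511 and 1978 in WKO confined libraries. All WT confined values were below both WT unconfined ones, while the WKO groups overlapped. The difference by confinement was -0.43 in WT (log2, SE 0.154, interval -0.76 to -0.09, p 0.0172, limma adjusted p 0.269), -0.18 in WKO (interval -0.51 to 0.16, limma adjusted p 0.654) and -0.30 on average (SE 0.109, p 0.0174, limma adjusted p 0.133). None of these passed the threshold. With library weights, which lower the influence of dispersed libraries, the averaged difference was -0.378 and passed (limma adjusted p 0.0137). These weights were 0.283, 3.74 and 0.321 for WKO confined replicates 1, 2 and 5, so that group rested mainly on replicate 2. Under them 2220 of all tested genes passed this comparison, against 773 without weights. Per kb of exon, Tbk1 exceeded Ikbke in every library, by 1.18 to 1.63 times in the unconfined and 1.45 to 2.28 times in the confined libraries. That order depends on the length used: per kb of the longest coding transcript the mean was higher for Ikbke (545.2) than for Tbk1 (423.5).

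Irf3 (ENSMUSG00000003184, chr7:44997648-45002848, plus strand), the transcription factor at the end of the route, also had its lowest values in WT confined libraries. It had 444 and 512 normalized reads in WT and 543 and 454 in WKO unconfined libraries. After confinement it had 384, 372 and 337 in WT and 409, 388 and 458 in WKO, so that the WT groups did not overlap and the WKO groups overlapped by 1 library. The difference was -0.39 in WT (log2, SE 0.150, p 0.0240, limma adjusted p 0.312), -0.25 in WKO (limma adjusted p 0.487) and -0.32 on average (SE 0.106, interval -0.55 to -0.09, p 0.0111, limma adjusted p 0.104). The averaged difference passed with the same library weights (-0.355, limma adjusted p 0.0192), under which more of all genes passed too, and in 0 of the other 18 alternatives. Over the same comparison, marker sums of neutrophils and their progenitors were 6898 to 10869 normalized reads in WT unconfined and 2545 to 7949 in WT confined libraries, and those of the B lineage 807 to 859 and 408 to 788. Stromal markers summed to 965 to 2019 and 212 to 811, and dendritic markers to 60 to 61 and 13 to 45, with Xcr1 at 0. Their part in the values of Ikbke and Irf3 was not tested.

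**Figure D1:**
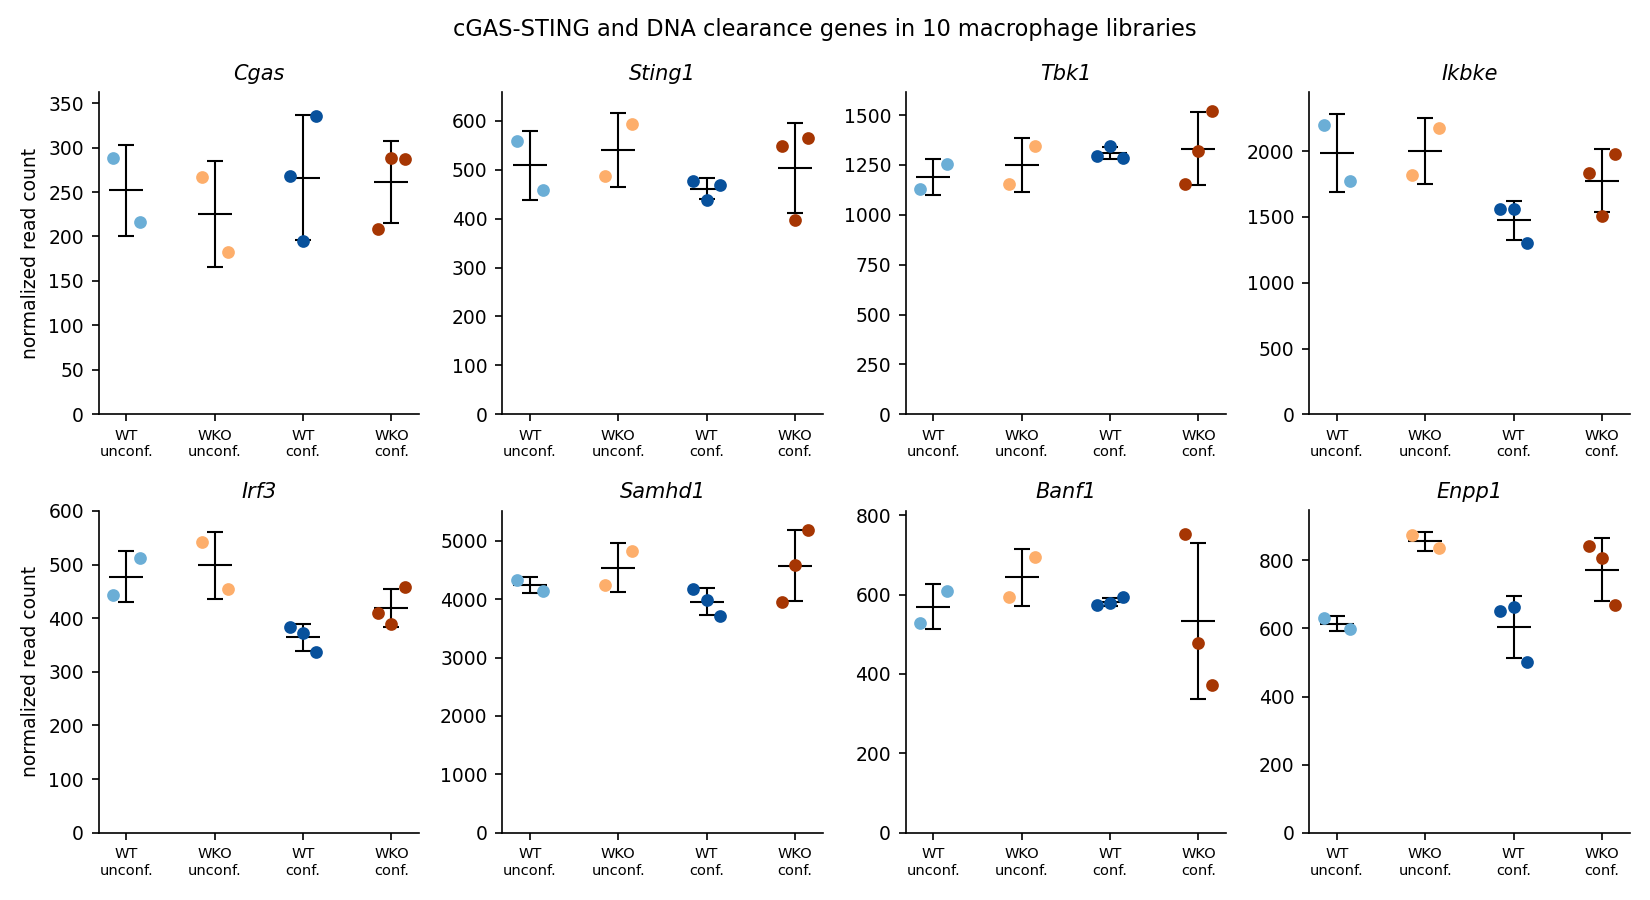
Normalized read counts (vertical axis, from 0) of the 8 tested genes in each library, grouped by genotype and condition. Points are libraries, wide dashes are group means and bars are 1 SD. Enpp1 lies between 500.5 and 662 in the WT and between 667 and 874 in the WKO libraries, and the WKO confined libraries of Banf1 spread from 371 to 752.

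Among the genes of DNA clearance, Samhd1 (ENSMUSG00000027639, chr2:157097533-157135265, minus strand), the deoxynucleotide triphosphohydrolase, had the most reads of the 9. The WT libraries had 4333 and 4139 normalized reads unconfined and 4168, 3989 and 3717 confined. The WKO libraries had 4249 and 4832 unconfined and 3955, 4584 and 5175 confined. The ranges of WKO and WT libraries overlapped in both conditions, and the averaged difference by genotype was 0.15 (log2, SE 0.088, interval -0.04 to 0.34, limma adjusted p 0.379). By confinement it was -0.05 (interval -0.24 to 0.15, or 0.846 to 1.11-fold, limma adjusted p 0.801).

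Banf1 (ENSMUSG00000024844, chr19:5364638-5367168, minus strand) encodes BAF, a small DNA-bridging protein that gathers at nuclear envelope ruptures. It had 529 and 609 normalized reads in WT and 593 and 695 in WKO unconfined libraries, and 574, 579.5 and 594 in WT confined libraries. The WKO confined libraries had 752, 477 and 371, which included both the highest and the lowest of all 10. The SD in that group was 36.9% of the mean against 1.73% in WT confined libraries. The difference by confinement in WKO was -0.33 (log2, SE 0.233, limma adjusted p 0.573), and without replicate 1 of that group it was -0.608 and passed (limma adjusted p 0.0369). That was the 1 of 20 alternatives in which it passed. The difference ranged from -0.608 to -0.099 without 1 library and was 0.079 with the replicate block. Without 1 library up to 1044 of all tested genes passed this comparison, against 214 with all libraries. Of its exon bases 28.6% overlap exons of Eif1ad on the opposite strand, and the use of strand in counting is not given in the sources used here. Of 30 protein-coding genes wholly within opposite-strand exons, 15 were at 0 in all libraries, against 132 of 132 within same-strand exons. Whether the overlap touched the count of Banf1 was not tested.

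Enpp1 (ENSMUSG00000037370, chr10:24637914-24712159, minus strand) was the member with a genotype difference. The WT libraries had 631 and 598 normalized reads unconfined and 651, 662 and 500.5 confined. The WKO libraries had 874 and 836 unconfined and 843, 805 and 667 confined. Every WKO library was above every WT library in both conditions, and the averaged difference was 0.42 (log2, SE 0.110, interval 0.18 to 0.66, limma adjusted p 0.0493). It was 0.48 in unconfined cells (SE 0.171, p 0.0165, limma adjusted p 0.381) and 0.36 in confined cells (SE 0.139, p 0.0254, limma adjusted p 0.220), and neither passed alone. By confinement Enpp1 differed by -0.09 (interval -0.33 to 0.15, limma adjusted p 0.667).

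The call of Enpp1 depended on the fit. It passed in 6 of 19 alternatives, with a log2 difference between 0.351 and 0.467 and an adjusted p between 0.00876 and 0.164. It was lost with edgeR's quasi-likelihood test (adjusted p 0.0511), with TMM scaling in limma (adjusted p 0.0588) and without the filter on low values (limma adjusted p 0.0799). Of the 10 fits without 1 library, the call was kept when WKO confined replicate 5 was left out and lost in the other 9 (adjusted p 0.0504 to 0.164). Enpp1 is also known as PC-1, a surface glycoprotein of plasma cells. The summed B-lineage markers, with each of the 5 detected in at least 1 library of every group, were 807 to 859 normalized reads in WT and 4046 to 4408 in WKO unconfined libraries, and 408 to 788 in WT and 1572 to 5195 in WKO confined libraries. Most of the sum was Ighm, which was 5.64-fold higher in WKO on average (limma adjusted p 0.000741). The averaged log2 differences of Cd79b and Ms4a1 were 0.84 and 0.27 and did not pass, and Cd79a was too low to test. In confined cells alone Cd79b was 1.47 higher in WKO and passed (limma adjusted p 0.0346). Sums of stromal markers were 965 to 2019 and 2617 to 3005 in the unconfined groups, and 212 to 811 and 990 to 11167 in the confined groups. For neutrophils and progenitors they were 6898 to 10869 and 24860 to 29884 unconfined, and 2545 to 7949 and 6987 to 27963 confined. Dendritic markers summed to 60 to 61 and 75 to 159 unconfined, and 13 to 45 and 64 to 95 confined. Averaged over conditions, 5 of 11 tested stromal and 5 of 11 neutrophil and progenitor markers were called higher in WKO, with median log2 differences of 2.16 and 1.70. For dendritic markers 0 of 4 were called. Their part in the difference of Enpp1 was not tested, and in such bulk libraries fewer cells of a type and less RNA per cell cannot be told apart.

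**Figure D2:**
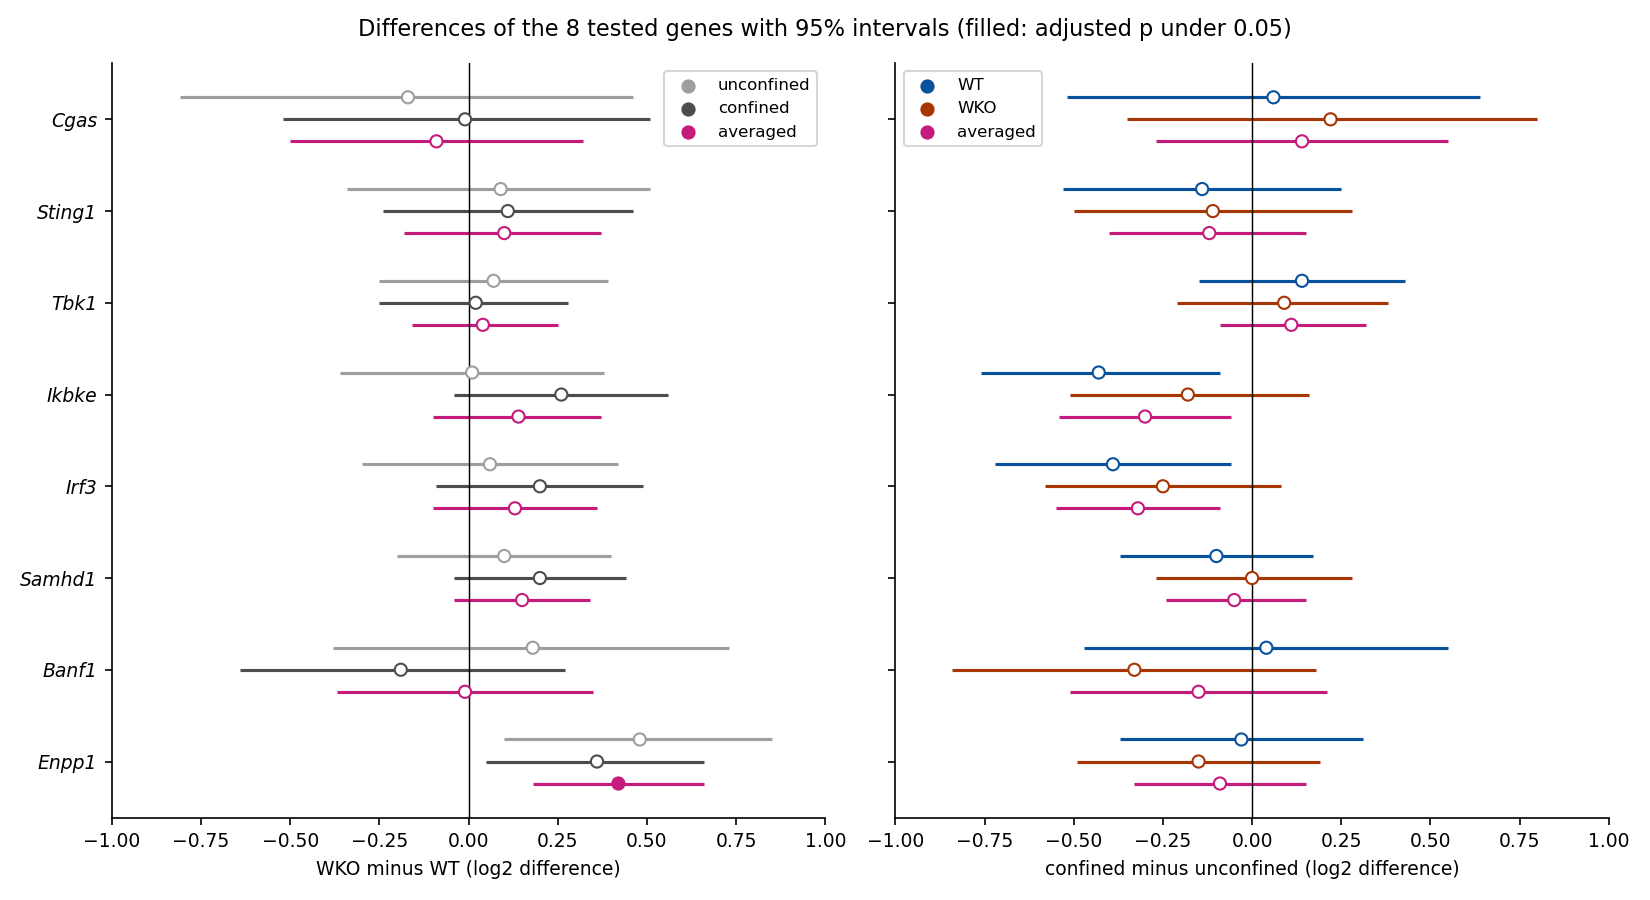
Log2 differences (horizontal axis) of the 8 tested genes with 95% intervals, WKO minus WT at left and confined minus unconfined at right. Colours give the condition, the genotype or the average of both, and filled points passed an adjusted p of 0.05. The one filled point is Enpp1, averaged over conditions, at 0.42; the averaged points of Ikbke (-0.30) and Irf3 (-0.32) lie left of 0 with intervals that leave out 0 but adjusted p above the threshold.

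Trex1 (ENSMUSG00000049734, chr9:109057933-109059734, minus strand), the main cytosolic DNA exonuclease, was listed at 0 reads in each of the 10 libraries. Its 1147 annotated exon bases lie to 100% within exons of Atrip (chr9:109057933-109074124, same strand), a partner of the checkpoint kinase ATR. The table listed Atrip at 193.4 ± 11.5 (SD, n = 2) normalized reads in WT unconfined, 205.2 ± 36.2 (n = 2) in WKO unconfined, 163.1 ± 7.25 (n = 3) in WT confined and 196.1 ± 41.2 (n = 3) in WKO confined libraries. Other genes with this layout were then counted. Of 132 protein-coding genes whose exons lie wholly within exons of other genes on the same strand, 132 were at 0 in all libraries, or 100%. Among 30 that lie wholly within exons on the opposite strand it was 15 (50%), and among 21667 other protein-coding genes 6534 (30.2%). The 0 of Trex1 can therefore not be read as absence of its transcript, and reads of Trex1 and Atrip are not separable in this table; how reads in shared exons were counted was not tested. No difference between groups could be measured for Trex1.

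**Figure D3:**
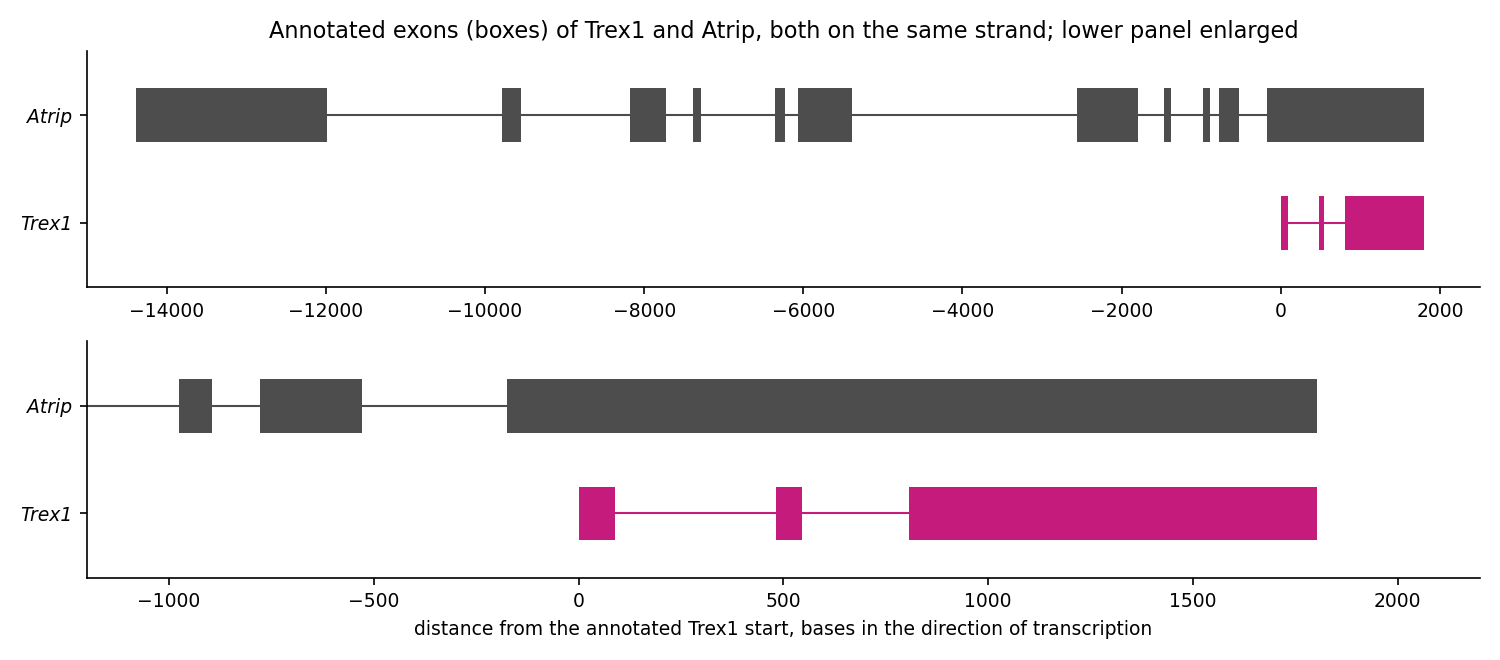
Exons (boxes) of Atrip and Trex1 from GENCODE M21, by distance in bases from the annotated Trex1 start in the direction of transcription (horizontal axis), with the lower panel enlarged. All 3 Trex1 exons, the last from 806 to 1801, lie inside the last Atrip exon, which runs from -174 to 1801.

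The set as a whole was set against all tested genes. By genotype in unconfined cells 0 of 8 members passed, where 0.145% of all genes did, and 1 of 8 (Enpp1) had libraries without overlap, where 44.9% of all genes did. In confined cells 0 of 8 passed (2.59% of all genes) and 2 of 8, Irf3 and Enpp1, did not overlap (21.1%). Averaged over conditions 1 of 8 passed (5.57%) and the same gene alone did not overlap (6.71%). By confinement 0 of 8 passed in WT (1.16% of all genes), with Tbk1, Ikbke and Irf3 without overlap (35.9%), and 0 of 8 passed in WKO (1.72%), with none without overlap (28.3%). Averaged over genotypes 0 of 8 passed (6.21%) and 0 of 8 did not overlap (7.39%). At an unadjusted p under 0.05 there were 1, 1 and 1 members by genotype (unconfined, confined and averaged) and 2, 0 and 2 by confinement (WT, WKO and averaged). Of all genes, 9.60%, 16.8% and 20.2% by genotype and 12.2%, 14.1% and 21.6% by confinement were under 0.05, so that 1 or 2 of 8 lay near the background. By edgeR 0 members passed in any comparison and by DESeq2 1, Enpp1 by genotype averaged over conditions. With 8 members, the counts above the background rest on 1 to 3 genes and are no result about the set.

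The interaction, in which the log2 difference of confined to unconfined WT cells is taken from that of WKO cells, passed for 0 of 8 members and for 0% of all genes. By limma 258 genes had an unadjusted p under 0.05 and 0 of the members were among them, and edgeR and DESeq2 also called 0 genes. The members' interactions ranged from -0.37 (Banf1, interval -1.08 to 0.35) to 0.25 (Ikbke, interval -0.22 to 0.72). The median log2 difference of the 8 members was 0.11 by genotype and -0.11 by confinement, averaged over the other factor, where the medians of all genes were 0.00 and -0.02.

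Levels were compared between genes per kb of annotated exons. The order was Samhd1 (471 ± 47.9 normalized reads per kb, SD over 10 libraries), Banf1 (386 ± 70.7), Tbk1 (328 ± 29.9), Ikbke (197 ± 32.4), Sting1 (182 ± 23.4), Irf3 (125 ± 18.7), Enpp1 (68.9 ± 12.1) and Cgas (61.5 ± 12.2). Ranges of neighbours overlapped except between Tbk1 and Ikbke and between Irf3 and Enpp1. Within libraries, Sting1 exceeded Irf3 in 10 of 10, Samhd1 exceeded Banf1 in 9, Banf1 exceeded Tbk1 in 8, Ikbke exceeded Sting1 in 8 and Enpp1 exceeded Cgas in 6. The order depends on the length used: per kb of the longest coding transcript Ikbke (545.2) lay above Banf1 (457.9) and Tbk1 (423.5), while Samhd1 stayed first (1099) and Cgas last (62.6). By the mean over the 10 libraries, Cgas was thus the lowest and Samhd1 the highest of the measured members with both lengths, though not in every library per kb of exons.

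**Figure D4:**
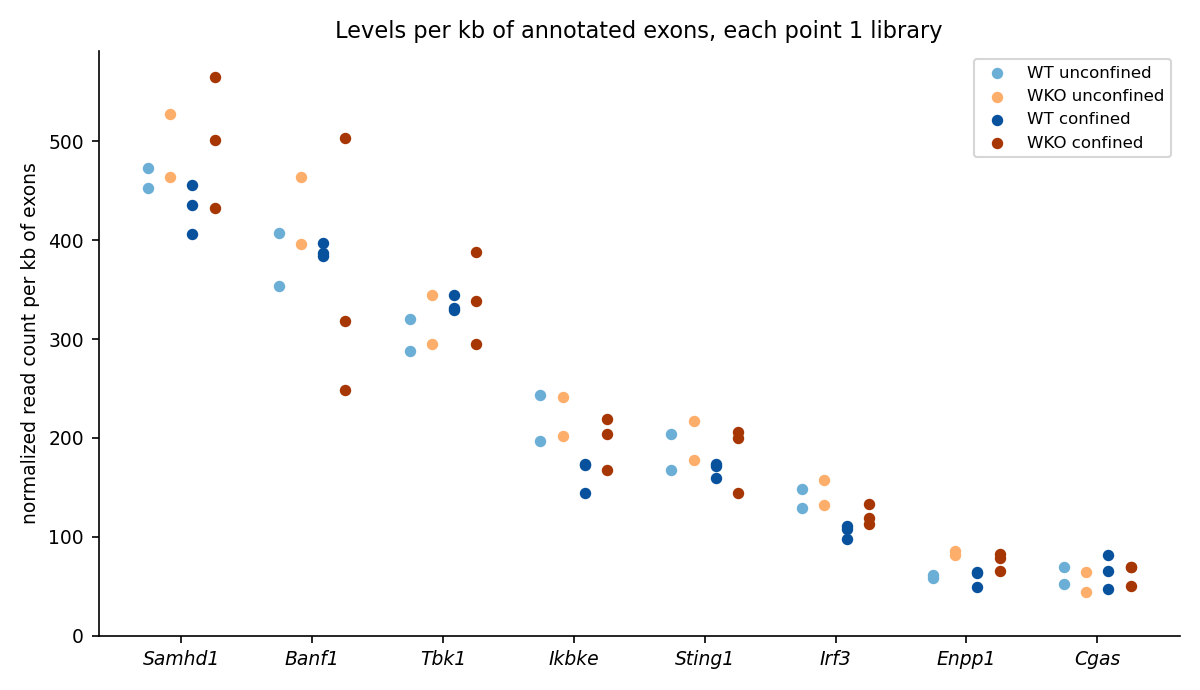
Normalized reads per kb of annotated exons (vertical axis, from 0) for the 8 tested genes in order of their mean, with each point 1 library and colours for the 4 groups. Samhd1, Banf1 and Tbk1 lie between 248 and 566, and Enpp1 and Cgas between 44.3 and 85.2.

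Members also differed in how they varied together over the 10 libraries. Their SD of log2 values ranged from 0.130 (Tbk1) to 0.292 (Cgas), against a median of 0.272 over all tested genes. The highest Pearson r between members was 0.79, for Sting1 and Ikbke, followed by 0.68 for Ikbke and Irf3, and the lowest was -0.58, for Banf1 with Cgas, Tbk1 and Samhd1. The 2 genes most like each member were taken by r over the same 10 libraries, which share depth and the 4 groups. For Enpp1 these were Pygl (0.981) and Dmpk (0.956), for Banf1 Elob (0.989) and Isyna1 (0.972), and for Samhd1 Ivns1abp (0.962) and Parp8 (0.941). For Ikbke they were Zfp639 (0.938) and Nisch (0.933), for Tbk1 Ptp4a1 (0.932) and Trps1 (0.925), and for Irf3 Mbd1 (0.921) and Clec9a (0.913), a dendritic cell marker at a mean of 10.5 normalized reads. For Cgas they were Zfp418 (0.918) and Mzt1 (0.892), and for Sting1 Hectd3 (0.881) and Cfap251 (0.877). With 12455 tested genes, high values are found for any gene, so these are descriptions.

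Genes around the pathway were taken from 7 lists with 138 genes, of which 128 were tested. After confinement, averaged over genotypes, 12 rose and 4 fell (12.5%, against 6.21% of all genes). By genotype, averaged over conditions, 3 were higher and 1 lower in WKO (3.12%, against 5.57%). The first count was 5 without WT unconfined replicate 1 or either WKO unconfined library, 6, 7 or 8 without 1 of the WT confined libraries, 9 without WT unconfined replicate 3 and 25 without WKO confined replicate 1. The second ranged from 0 to 8 in the same fits. Because the lists were chosen with earlier results known, the counts are descriptions.

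Proteins that regulate cGAS or carry cGAMP gave the following. Of 20 tested, Lrrc8a, Lrrc8b and Lrrc8d, subunits of the volume-regulated anion channel through which cGAMP can pass, rose after confinement, with log2 differences of 1.03, 0.78 and 0.51 (limma adjusted p 0.0336, 0.0211 and 0.0405), and Trim14, a stabiliser of cGAS, fell by 0.45 (limma adjusted p 0.0484). Lrrc8b went from 429 and 450.1 normalized reads in WT and 375 and 348 in WKO unconfined libraries to 750, 730 and 673 in WT and 462, 607 and 991 in WKO confined libraries. No confined library of it overlapped the unconfined ones. Of the other subunits listed, Lrrc8c differed by 0.71 after confinement and did not pass by limma, while DESeq2 called it. Lrrc8e had 0 to 4 reads and was not tested. Of the 10 fits without 1 library, Lrrc8a, Lrrc8d and Trim14 were kept in 2, those without WKO confined replicate 1 or 5, and lost in the other 8 (adjusted p up to 0.133, 0.142 and 0.198). Lrrc8b was kept without any 1 WKO confined library or WT confined replicate 6 and lost in the other 6 (up to 0.0917). Lrrc8a shares 66.2% of its exon bases with Gm28035 on the same strand. Of the exon bases of Trim14, 38% overlap exons of other genes on the opposite strand, and, as for Banf1, whether this touched its count was not tested. Smpdl3a, an enzyme that hydrolyses cGAMP and so acts on the same substrate as ENPP1, was 0.44 higher in WKO (limma adjusted p 0.0423), and the ATP-gated channel gene P2rx7 was 0.40 higher (limma adjusted p 0.0497). Smpdl3a was kept without WT confined replicate 3 or 6 or WKO confined replicate 1 or 5 and lost in the other 6 fits (adjusted p up to 0.160). P2rx7 was kept without WT unconfined replicate 1 or WKO confined replicate 1 or 5 and lost in the other 7 (up to 0.181). The marker sums that were higher in WKO libraries, given beside Enpp1, moved with these differences too, and their part was not tested.

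STING trafficking and turnover was the largest list, with 31 tested genes. Insig1, an endoplasmic reticulum protein that retains sterol regulators, rose by 0.77 on the log2 scale (SE 0.074, limma adjusted p 0.000123). It had 2416 and 2241 normalized reads in WT and 1629 and 1724 in WKO unconfined libraries, and 3362, 3640.2 and 3798 in WT and 3054, 3064 and 3325 in WKO confined libraries. Every confined library was above every unconfined one, and Insig1 also passed within WT (0.63, limma adjusted p 0.0140) and within WKO (0.91, limma adjusted p 0.00120). Averaged over conditions it was lower in WKO by -0.33 (limma adjusted p 0.0234), a call lost without WT unconfined replicate 1, either WKO unconfined library or WT confined replicate 3 or 6 (adjusted p up to 0.111). The call within WT was lost without either WT unconfined library or WT confined replicate 3 or 6 (up to 0.141). Tollip, which stabilises STING, rose by 0.56 (limma adjusted p 0.00320), the autophagy receptor gene Sqstm1 by 0.97 (limma adjusted p 0.0142), Rhbdf2, whose product iRhom2 assists STING transport, by 0.67 (limma adjusted p 0.0377) and the cargo receptor gene Tmed2 by 0.34 (limma adjusted p 0.0163). Trim32 fell by 0.61 (limma adjusted p 0.0275). Insig1 and Tollip passed in all 19 alternatives of this comparison, while in the fits without 1 library the calls of Sqstm1 and Tmed2 were lost without WT unconfined replicate 1 or either WKO unconfined library, and that of Tmed2 also without WT confined replicate 2 (adjusted p up to 0.0784 and 0.0824). Rhbdf2 was kept in the 3 fits without 1 WKO confined library, and Trim32 in those and without WT unconfined replicate 3, and both were lost in the others (adjusted p up to 0.133 and 0.120).

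Adaptors and regulators of TBK1, IKK-epsilon and IRF3 included Tnfaip3, which encodes A20, an NF-kB-induced inhibitor of the route. Tnfaip3 had 1381 and 1332 normalized reads in WT and 1263 and 1372 in WKO unconfined libraries. It had 6015, 6805 and 9574 in WT confined and 7757, 4325 and 18898 in WKO confined libraries, all above the unconfined ones. The rise was 5.93-fold on average (log2 difference 2.57, SE 0.307, limma adjusted p 0.000587), 2.43 in WT (limma adjusted p 0.0212) and 2.71 in WKO (limma adjusted p 0.00908). The averaged call was kept in all 19 alternatives, the WT call was lost without any 1 WT library (adjusted p up to 0.171) and the WKO call without either WKO unconfined library (up to 0.114) or with the WKO groups fitted alone (0.115). Of 24 tested genes, Traf3 also rose (0.60, limma adjusted p 0.0377) and Mavs, the adaptor of the RNA sensing route, fell by 0.46 (limma adjusted p 0.0336). Traf3 was kept in the 3 fits without 1 WKO confined library and lost in the other 7 (adjusted p up to 0.154). Mavs was kept without WT unconfined replicate 3 or WKO confined replicate 1 or 5 and lost in the other 7 (up to 0.138).

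Partners of BAF in the nuclear envelope numbered 10 tested genes, of which Lmna, encoding lamins A and C, rose. It had 4198 and 4585 normalized reads in WT and 3251 and 3064 in WKO unconfined libraries, against 6062, 5737 and 8711 in WT and 6149, 5816 and 7985 in WKO confined libraries. The difference averaged over genotypes was 0.84 (log2, SE 0.127, limma adjusted p 0.00283) and passed in all 19 alternatives. Within WT it was 0.61 and did not pass (limma adjusted p 0.163). Within WKO it was 1.06 and passed (limma adjusted p 0.0123), as it did in 17 of 20 alternatives. Of 13 tested genes of deoxynucleotide supply, the pathway that SAMHD1 counteracts, mitochondrial Tk2 was 0.41 higher in WKO (limma adjusted p 0.0390; the part of the same marker sums was not tested) and mitochondrial Dguok fell by 0.52 after confinement (limma adjusted p 0.0470). Tk2 was kept in the 3 fits without 1 WKO confined library and lost in the other 7 (adjusted p up to 0.213), and Dguok was kept without WKO confined replicate 1 and lost in the other 9 (up to 0.165). Of 15 tested genes listed as nucleases or subunits of nuclease complexes, other than the members, 0 passed in any comparison by limma or edgeR. DESeq2 called Exo1 by genotype in confined cells. Exo1 and Mre11a were the genes of this list with an unadjusted p under 0.05 in at least 1 comparison.

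The readout of the route was represented by 18 interferon genes and genes induced by them, of which 16 were tested. Ifnb1 had 0 or 1 read in each library and Ifna4 had 0, below the floor of 3 reads, so neither was detectable at this depth. Cxcl10, a chemokine induced by interferon and by NF-kB, had 6.65 and 20.2 normalized reads in WT and 20.7 and 24.8 in WKO unconfined libraries. It had 129, 89.2 and 174 in WT confined and 217, 118 and 1377 in WKO confined libraries, with the highest value in replicate 5. The rise was 11.8-fold averaged over genotypes (log2 difference 3.56, SE 0.566, interval 2.32 to 4.79, limma adjusted p 0.00352). This averaged call passed in all 19 alternatives, with a lowest log2 difference of 2.932. Within WT the difference was 3.32 and did not pass (limma adjusted p 0.0826). Within WKO it was 3.80 and passed (limma adjusted p 0.0373), but in only 10 of 20 alternatives. The other 15 tested genes of the list passed in 0 comparisons by limma or edgeR. By confinement averaged over genotypes 5 of them had an unadjusted p under 0.05, of which Ccl5 (1.82, limma adjusted p 0.107) and Rsad2 (0.51, limma adjusted p 0.0771) were positive and Mx1 (-0.52), Stat2 (-0.42) and Irf9 (-0.26) negative, and DESeq2 called Ccl5 and Rsad2. These genes were named after their values were seen, and the list's median difference by confinement was 0.01, where that of all genes was -0.02.

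**Figure D5:**
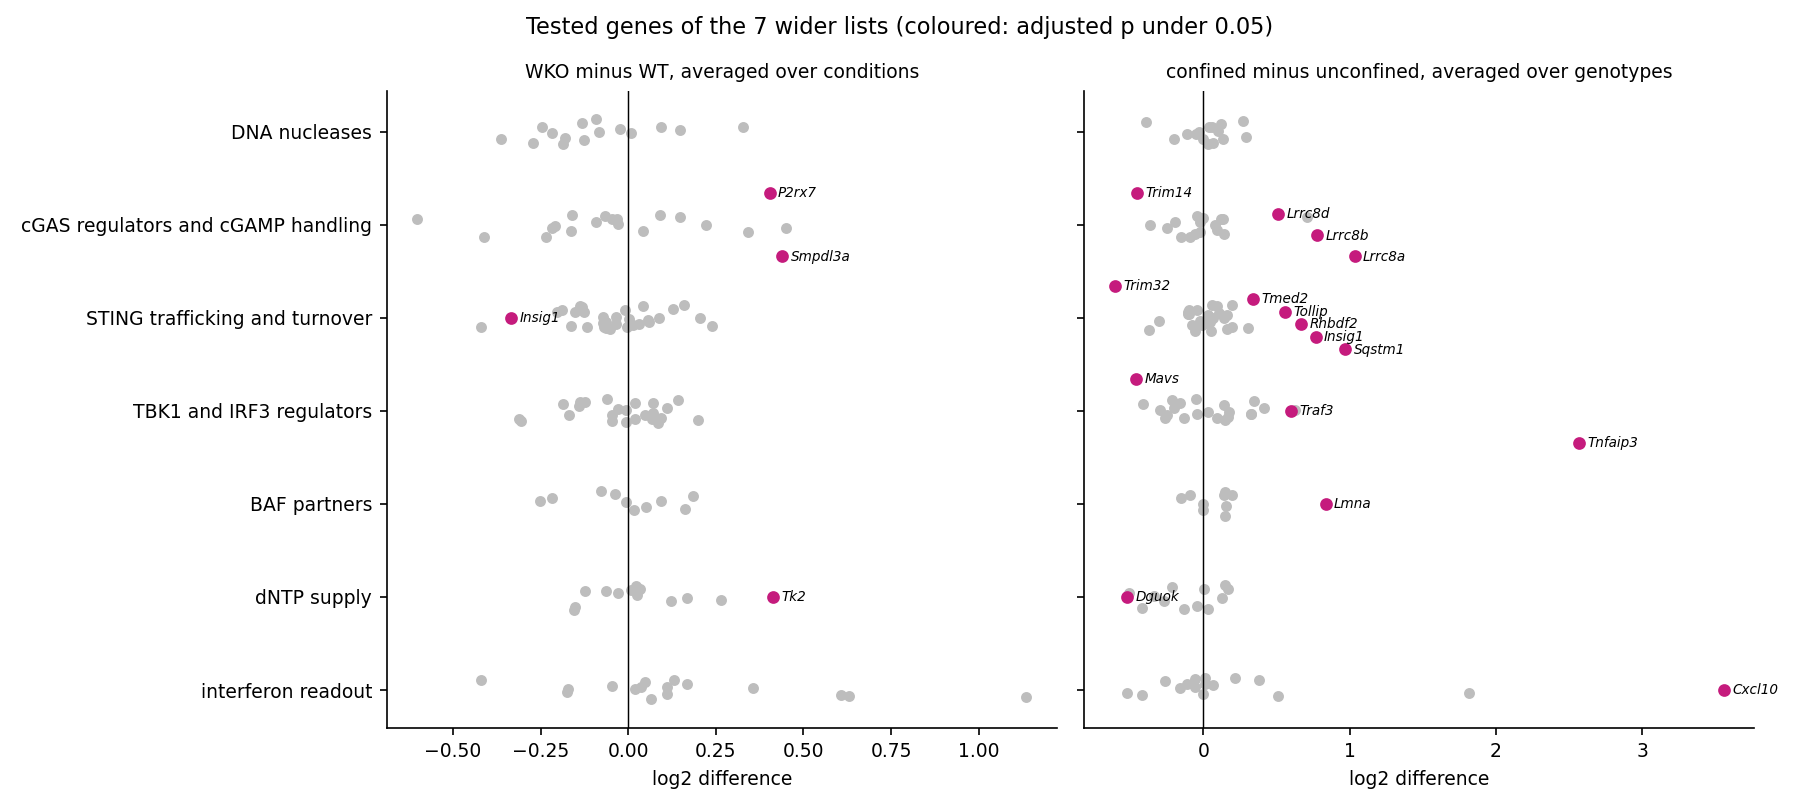
Log2 differences (horizontal axis) of the 128 tested genes of the 7 lists around the pathway, by genotype at left and by confinement at right, each averaged over the other factor. Each point is 1 gene, coloured and named where the adjusted p was under 0.05. By confinement 12 genes lie right and 4 left of 0 among the coloured ones, with Tnfaip3 at 2.57 and Cxcl10 at 3.56.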

How the data were processed

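Poly(A) RNA sequencing was done on 10 BMDM libraries from 5 ng of RNA each, per the labels' protocols. The table that the authors deposited gives, for every gene in each library, a signal: the normalized read count. The submitters' processing notes name FastQC, Trim Galore, STAR and the builds GRCm38 and mm10, without versions; the counting tool, annotation and use of strand are not given in the sources used here. In each library 100% of the deposited values were whole multiples of 1 read (tolerance 1e-06 reads), so whole reads were recovered. Floors cover counting error only, because reads without molecular identifiers are not independent molecules.

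Genes with a mean of at least 10 (12455) were fitted with limma 3.58.1 (R 4.3.3) after adding 1 to the value and taking log2, with 1 mean per group, all 10 libraries and a mean-variance trend. Tests were two-sided and Benjamini-Hochberg adjusted over all tested genes of a comparison, threshold 0.05. Fold changes are on that log2 scale and understate changes of low genes. The 7 comparisons share libraries. Members and lists were chosen with earlier results of these data known. Named besides the members were up to 4 passing genes per list by smallest p, or 1 where none passed, and 2 genes per member by Pearson r. The genes P2rx7, Trim14, Rhbdf2, Trim32, Lrrc8c and Lrrc8e were named after their values were seen. Usp18 is in 2 lists. Gene models were GENCODE M21 (GRCm38), in which 4981 identifiers of the table were not found. Shared sequence was searched with blastn 2.17.0 at 95% identity over at least 100 bases. Alternatives used edgeR 4.0.16 and DESeq2 1.42.0 on recovered reads, TMM or upper-quartile scaling, pseudocounts of 0.5 and 5, no filter, only the groups compared, library weights, a replicate block and leaving out each library, where a lone library is assumed to vary like the other groups. No replicate pair agreed within sampling noise (chi-square per degree of freedom 7.74 to 86.2). The scripts were tested on simulated data. No library was left out. The separate value of 1 B-lineage marker is not reported here.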

Additional observations from a re-analysis of the deposited data

Results flagged for a closer look

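Exo1, a DNA repair exonuclease, had the smallest p in the list of nuclease genes that are not members. It was higher in both WKO than in both WT libraries in unconfined cells and lower in all WKO than in all WT libraries in confined cells. It had 92.1 and 103.6 normalized reads in WT and 139 and 105 in WKO unconfined libraries, and 153, 222 and 145 in WT and 94.1, 106 and 104 in WKO confined libraries. The test of this difference, the interaction, was -1.05 on the log2 scale (SE 0.341, p 0.0100) and did not pass (limma adjusted p 0.999), nor did it pass in any of the 19 alternatives, where it ranged from -1.244 to -0.846. The difference in confined cells was -0.74 (limma adjusted p 0.0979), which DESeq2 called. With groups of 2 and 3 libraries, 44.9% of all tested genes were without overlap between genotypes in unconfined cells and 21.1% in confined cells.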

How the results depend on the processing

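Of 56 member differences under 1096 alternatives, 1079 kept their side of the threshold and 0 called ones changed direction; 30 differences that had not passed changed sign in at least 1 alternative. The count of members passing by genotype averaged over conditions (1) was 0 with edgeR, with TMM scaling, without the filter and with the replicate block (Enpp1, limma adjusted p 0.0677), and 0 to 1 without 1 library. With library weights it was 1 by genotype in confined cells (Enpp1, 0.373, limma adjusted p 0.0306) and 2 by confinement averaged over genotypes (Ikbke and Irf3). Under these weights the WKO confined group rested mainly on replicate 2. Of all genes, 1948 and 2220 passed those 2 comparisons with weights, against 322 and 773 without. The count of members passing by confinement in WKO was 0 to 1 without 1 library (Banf1). The cause was not tested. Deviations of libraries with the same replicate number correlated at r between -0.11 and 0.08 (7 pairs, all tested genes). In a group of 2 libraries the deviations mirror each other, so these pairs are not independent. The correlations therefore cannot decide whether the numbers pair libraries, and the labels do not say. The block result is given here alone. Over all genes the count by genotype was 18 (4 to 245 over the alternatives) in unconfined cells, 322 (58 to 1948) in confined cells and 694 (169 to 1804) on average. By confinement it was 144 (22 to 455) in WT, 214 (33 to 1735) in WKO and 773 (287 to 2220) on average, and the interaction stayed at 0 in the 19 alternatives run. In the wider lists the averaged confinement count (16) ranged from 5 to 29 and the averaged genotype count (4) from 0 to 10. Of these calls, the replicate block lost Lrrc8a, Lrrc8b, Lrrc8d, Trim14, Tmed2, Trim32, Traf3, Mavs and Dguok by confinement (adjusted p up to 0.593) and Smpdl3a, P2rx7, Tk2 and Insig1 by genotype (up to 0.165), and Insig1 by confinement within WT. Without the filter, Lrrc8a, Lrrc8d, Trim14, Rhbdf2, Traf3, Mavs and Dguok by confinement and Smpdl3a, P2rx7 and Tk2 by genotype were lost. Smpdl3a and P2rx7 were also lost with edgeR, and P2rx7 with TMM scaling and with a pseudocount of 0.5. Other scalings moved the median of all genes by less than 0.1 (log2).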
